A study of Homo sapiens and Mus musculus with 13 samples.

Results

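The 7 genes followed here encode secreted gland proteins, and were measured across 6 mammary tumors of the mouse: the secretoglobins Scgb1b27, Scgb2b26 and Scgb2b27, Pip, the major urinary protein gene Mup5, and the whey acidic protein (WAP) domain genes Wfdc12 and Wfdc18. These 7 of 55228 gene symbols in the mouse expression table were picked from earlier results of the same tumors, so their difference between genotypes is given below as a description, with no test. All 7 had a mean of at least 0.5 FPKM (fragments per kilobase of exon, scaled to library size), the level required of the 17328 genes compared.

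The tumors were 3 from Trim11+/+ and 3 from Trim11+/- mice, with 1 library per tumor, and gene expression was measured by RNA-Seq of poly(A) RNA. All the mice carried the MMTV-PyVT transgene, in which a viral promoter active in mammary epithelium drives the polyoma middle T oncogene. They had a hybrid background of C57BL/6N and FVB/N, and all were 3 months old and, by the study's methods, female. In the Trim11+/- mice 1 allele lacked exons 2 to 6 of Trim11, which encodes a ubiquitin E3 ligase, in all tissues of the body, so effects of the mammary epithelium and of the rest of the animal cannot be told apart. The labels call every sample a mammary tumor. They do not say which gland was sampled, whether each tumor came from a different mouse or whether mice were littermates. Their strain entries carry a running line number, from 634 to 639 over the 6 samples, while the methods name only line 634, so whether the number marks different lines is not known.

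Secretoglobins are small secreted proteins that pair into dimers, and in mouse the Scgb1b genes encode alpha subunits and the Scgb2b genes beta or gamma subunits of androgen-binding protein, which is abundant in saliva and tears. Pip (prolactin-induced protein) is secreted by salivary, lacrimal and sweat glands and by apocrine breast tissue, and major urinary proteins are lipocalins that carry pheromones in urine and in secretions of glands. WAP-domain proteins include inhibitors of proteases in milk and mucosal fluids, and Wfdc18, also called Expi, is a proteinase inhibitor of the mammary gland. In a bulk tumor, fewer cells of a type and less RNA per cell cannot be told apart.

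The secretoglobin and Mup genes lie in clusters of similar copies, so the sequences of the closest copies decide whether reads could be assigned to 1 gene. In GENCODE M21 on mm10, Scgb2b26 lies at chr7:33943002-33945040 and Scgb2b27 at chr7:34011921-34013942, both on the minus strand, and Scgb1b27 lies at chr7:34021483-34022881 on the plus strand, 7.54 kb from Scgb2b27. Mup5 lies at chr4:61831319-61835233 on the minus strand, Pip at chr6:41847535-41852065 on the plus strand, Wfdc12 at chr2:164189231-164190608 on the minus strand and Wfdc18 at chr11:83709015-83711348 on the plus strand. Trim11 itself is on chromosome 11, 24.7 Mb from Wfdc18. The coding exon 2 of each gene is shown beside that of its closest copy, 5′ to 3′ on the coding strand, with the bases that differ within a pair in capitals. For the beta or gamma subunits, exon 2 spans chr7:33944271-33944452 in Scgb2b26 and chr7:34013173-34013354 in Scgb2b27, and 54 of 182 bases differ.
Scgb2b26: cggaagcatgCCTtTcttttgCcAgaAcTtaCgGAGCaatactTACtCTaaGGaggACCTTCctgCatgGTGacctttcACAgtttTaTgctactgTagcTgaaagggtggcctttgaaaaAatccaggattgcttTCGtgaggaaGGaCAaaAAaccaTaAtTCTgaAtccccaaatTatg
Scgb2b27: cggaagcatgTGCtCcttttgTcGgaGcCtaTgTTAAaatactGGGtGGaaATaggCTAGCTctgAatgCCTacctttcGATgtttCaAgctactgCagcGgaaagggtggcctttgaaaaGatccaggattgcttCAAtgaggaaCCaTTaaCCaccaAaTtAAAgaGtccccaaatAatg
For the alpha subunit, exon 2 of Scgb1b27 spans chr7:34021750-34021937 and that of its closest copy Scgb1b30 chr7:34099706-34099893, both on the plus strand, and 25 of 188 bases differ.
Scgb1b27: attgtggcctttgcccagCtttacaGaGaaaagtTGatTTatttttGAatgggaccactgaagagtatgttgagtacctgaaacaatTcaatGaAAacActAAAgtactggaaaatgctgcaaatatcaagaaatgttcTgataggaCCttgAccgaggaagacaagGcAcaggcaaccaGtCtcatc
Scgb1b30: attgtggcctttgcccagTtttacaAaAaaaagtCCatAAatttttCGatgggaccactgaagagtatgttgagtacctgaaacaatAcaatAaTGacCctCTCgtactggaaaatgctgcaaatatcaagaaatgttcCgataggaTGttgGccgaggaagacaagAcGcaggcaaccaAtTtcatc
For the major urinary proteins, exon 2 of Mup5 spans chr4:61834555-61834688 and that of Mup4 chr4:59960039-59960172, both on the minus strand, and 4 of 134 bases differ, with an identical run of 57 bases.
Mup5: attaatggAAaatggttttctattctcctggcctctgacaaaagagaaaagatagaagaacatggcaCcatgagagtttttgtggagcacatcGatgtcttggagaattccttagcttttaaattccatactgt
Mup4: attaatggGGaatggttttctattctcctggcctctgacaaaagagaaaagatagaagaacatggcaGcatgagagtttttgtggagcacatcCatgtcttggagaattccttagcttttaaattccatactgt

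Identity was read from the best alignment between transcripts, over the aligned bases only. Scgb2b26 and Scgb2b27 were 81.2% identical over 517 aligned bases, Scgb1b27 and Scgb1b30 90.2% over 491, Mup5 and Mup4 92.3% over 921, and Wfdc18 and its neighbor Wfdc17 79.5% over 523. None of the 150-base windows of any of the 7 genes occurred exactly in transcripts of another gene, and 150 bases is the read length given by the study. The windows come from the mm10 annotation and need an exact match. They do not cover other alleles of the hybrid background or reads mapped with mismatches. Windows of 50 bases were shared in part. The share of windows found elsewhere was 0.0% for Scgb1b27, Pip and Wfdc18, 1.7% for Scgb2b26, 1.9% for Scgb2b27, 10.9% for Wfdc12 and 17.1% for Mup5. The shared windows of Wfdc12 all came from A730032A03Rik, an antisense gene that overlaps it, and those of Mup5 came from 24 genes, with Mup4 sharing the most. Reads of Mup5 are therefore the least certain of the 7, and since the libraries did not keep the strand, reads in the overlap of Wfdc12 and A730032A03Rik could belong to either.

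The FPKM values were whole reads divided by gene length and library total, so the reads behind each value are known. The 6 libraries held between 8793199 and 11117125 reads assigned to genes. As a check of the labels, Trim11 had 35.8, 36.3 and 39.2 FPKM in Trim11+/+ tumors and 24.0, 22.8 and 22.9 FPKM in Trim11+/- tumors. The genotypes did not overlap and differed in the direction that the labels give. Luminal epithelial markers were high in all 6 tumors, with a summed level of 9 genes between 1731 and 2270 FPKM in Trim11+/+ and between 1688 and 2212 FPKM in Trim11+/- tumors.

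The alpha subunit gene Scgb1b27 was at 15.8, 4.01 and 1.39 FPKM in Trim11+/+ tumors 1, 2 and 3, from 173, 41 and 14 reads. In Trim11+/- tumors 1, 2 and 3 it was at 104, 115 and 216 FPKM, from 1161, 1019 and 2337 reads. The lowest Trim11+/- tumor was 6.60 times above the highest Trim11+/+ tumor, and the Trim11+/+ tumors differed among themselves by 11.3 times. The means were 7.05 ± 7.65 (SD, n = 3) and 145 ± 61.9 FPKM (SD, n = 3), a ratio of 20.6, and the difference on the log2(FPKM + 1) scale was 4.56 (SE 0.69).

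Scgb2b27, the more abundant beta or gamma subunit gene, was at 52.9, 20.7 and 53.8 FPKM in Trim11+/+ tumors and at 191, 280 and 237 FPKM in Trim11+/- tumors. Its reads numbered between 330 and 4002 per tumor, the largest number of the 3 secretoglobins. The Trim11+/- tumors stayed within 1.46 times of one another, and the lowest of them was 3.55 times above the highest Trim11+/+ tumor. The means were 42.5 ± 18.9 and 236 ± 44.2 FPKM (SD, n = 3 each), a ratio of 5.56 and a log2 difference of 2.55 (SE 0.37).

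Scgb2b26, its copy, was nearly silent in Trim11+/+ tumors, with 0.790, 0.340 and 0 FPKM from 5, 2 and 0 reads. A count of 0 in Trim11+/+ tumor 3 allows up to 0.516 FPKM. In Trim11+/- tumors it was at 5.75, 7.46 and 28.3 FPKM from 37, 38 and 176 reads, so tumor 3 held 68.2% of the sum and was far above the other two. The means were 0.377 ± 0.396 and 13.8 ± 12.5 FPKM (SD, n = 3 each), with a log2 difference of 3.15 (SE 0.56), and the ratio of 36.7 was 17.5 without Trim11+/- tumor 3. Since the Trim11+/+ mean rests on 7 reads in all, this ratio is the least precise of the secretoglobins.

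**Figure D1:**
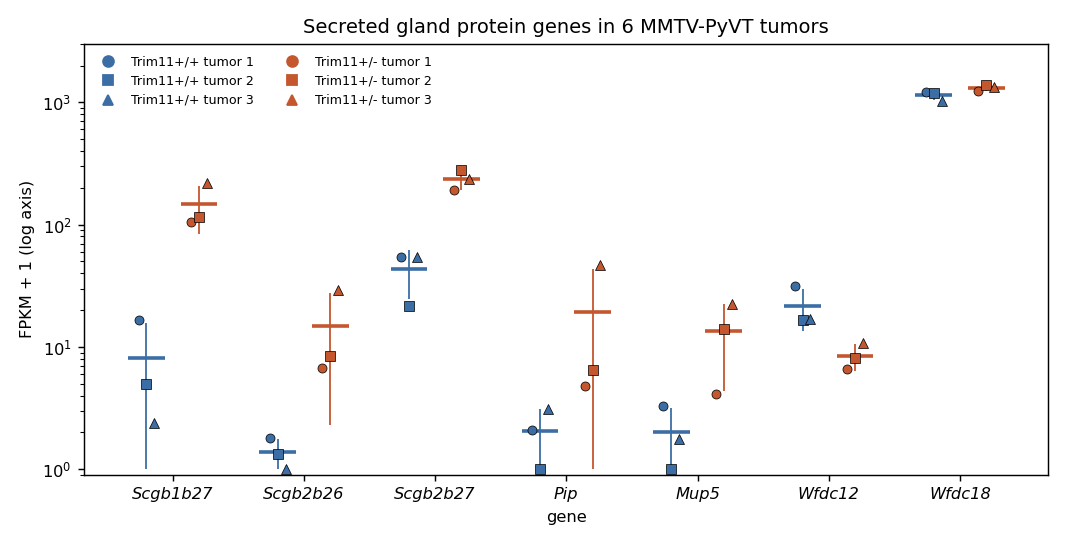
FPKM + 1 on a log axis for each of the 7 genes in each tumor (points, marked by tumor), with the mean per genotype (horizontal bar) and its SD (vertical line, cut at 0 FPKM). Scgb1b27, Scgb2b26, Scgb2b27, Pip and Mup5 sit higher in the Trim11+/- tumors, Wfdc12 sits lower, and Wfdc18 lies between 1028 and 1374 FPKM in all 6.

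The 2 beta or gamma genes did not keep a fixed ratio. Reads of Scgb2b26, as a share of those of Scgb2b26 and Scgb2b27, were 0.548% (95% exact binomial interval 0.178 to 1.27%), 0.602% (0.0730 to 2.16%) and 0% (up to 0.434%) in Trim11+/+ tumors. They were 1.10% (0.773 to 1.51%) and 0.974% (0.690 to 1.33%) in Trim11+/- tumors 1 and 2. In Trim11+/- tumor 3 the share was 4.21% (3.62 to 4.87%), beyond the intervals of the other 5 tumors. These intervals cover counting error only.

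The alpha gene also shifted against the beta or gamma gene. The FPKM of Scgb1b27 was 0.298, 0.194 and 0.0258 times that of Scgb2b27 in Trim11+/+ tumors and 0.543, 0.412 and 0.913 times in Trim11+/- tumors. Annotated exons add up to 2.04 times the shortest transcript of Scgb1b27 and 3.07 times that of Scgb2b27, so the size of the ratio depends on these lengths. The genotypes did not overlap in this ratio, which was chosen with the levels known and is a description. Together the 3 secretoglobins had 1086, 373 and 863 reads in Trim11+/+ tumors, or 99.4, 36.7 and 86.0 CPM (reads scaled to library size), and 4538, 4919 and 6515 reads, or 408, 559 and 606 CPM, in Trim11+/- tumors. Scgb1b30, the closest copy of Scgb1b27, had at most 7 reads in any tumor, and adding the copies of at least 90% identity to Scgb1b27 changed its log2 difference from 4.56 to 4.52.

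**Figure D2:**
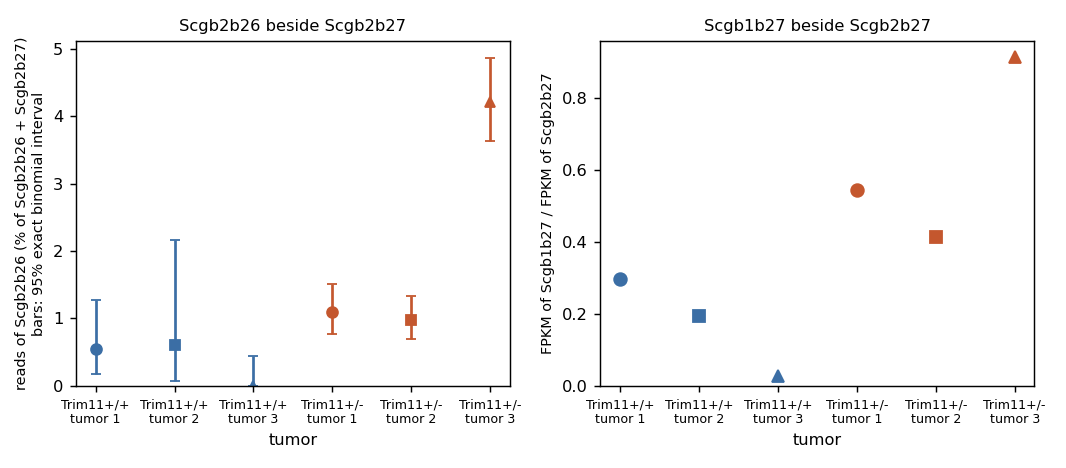
Left, reads of Scgb2b26 as a percent of reads of Scgb2b26 and Scgb2b27 in each tumor, with 95% exact binomial intervals for counting error; right, the ratio of FPKM of Scgb1b27 to that of Scgb2b27 in each tumor. Trim11+/- tumor 3 has the highest value in both, 4.21% and 0.913.

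Pip was at 1.07, 0 and 2.13 FPKM in Trim11+/+ tumors, from 28, 0 and 51 reads, and a count of 0 allows up to 0.124 FPKM. In Trim11+/- tumors it was at 3.80, 5.52 and 45.9 FPKM, from 101, 116 and 1177 reads. The genotypes did not overlap, but the lowest Trim11+/- tumor was only 1.79 times above the highest Trim11+/+ tumor, and Trim11+/- tumor 3 alone held 83.1% of the sum. The means were 1.07 ± 1.06 and 18.4 ± 23.8 FPKM (SD, n = 3 each), so the SD of the Trim11+/- tumors exceeded their mean. The log2 difference was 2.61 (SE 0.89), and the ratio of 17.2 was 4.37 without Trim11+/- tumor 3. Annotated exons of Pip add up to 4.06 times the length of its shortest transcript, so its FPKM is low relative to genes whose exons are all used, and its rank among genes depends on that length.

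Mup5 was at 2.28, 0 and 0.754 FPKM in Trim11+/+ tumors, from 23, 0 and 7 reads, where a count of 0 allows up to 0.319 FPKM. It was at 3.11, 12.9 and 21.2 FPKM in Trim11+/- tumors, from 32, 105 and 211 reads. Trim11+/- tumor 1 was 1.37 times above Trim11+/+ tumor 1, and their exact Poisson intervals for counting error, 2.13 to 4.39 and 1.44 to 3.41 FPKM, overlapped. The means were 1.01 ± 1.16 and 12.4 ± 9.07 FPKM (SD, n = 3 each), with a log2 difference of 2.60 (SE 0.69), and the ratio of 12.3 was 7.93 without Trim11+/- tumor 3. Mup4, its closest copy, had 44 reads in Trim11+/- tumor 3, which was 17.3% of the reads of the pair (95% exact binomial interval 12.8 to 22.5%), and at most 2 reads in each of the other 5 tumors. Summed over Mup5 and its 5 copies of at least 90% identity the log2 difference was 2.71, and Mup5 gave 88.0% of that sum.

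Wfdc12, a WAP-domain gene, ran the other way. It was at 30.2, 15.7 and 16.1 FPKM in Trim11+/+ tumors and at 5.57, 7.19 and 9.73 FPKM in Trim11+/- tumors, from between 48 and 256 reads per tumor. The lowest Trim11+/+ tumor was 1.62 times above the highest Trim11+/- tumor. The means were 20.7 ± 8.27 and 7.50 ± 2.09 FPKM (SD, n = 3 each), 2.76-fold lower in Trim11+/- tumors, with a log2 difference of -1.32 (SE 0.29). The overlapping antisense gene A730032A03Rik was at 9.95, 6.03 and 5.04 FPKM in Trim11+/+ tumors and 1.13, 1.37 and 3.80 FPKM in Trim11+/- tumors, in the same direction.

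Wfdc18, the mammary proteinase inhibitor gene, was by far the most abundant of the 7 and ranked 12 by mean FPKM among the 17328 genes. It was at 1205, 1196 and 1028 FPKM in Trim11+/+ tumors and 1233, 1374 and 1327 FPKM in Trim11+/- tumors. The genotypes did not overlap by a margin of 1.02 times, the means were 1143 ± 99.4 and 1311 ± 72.0 FPKM (SD, n = 3 each), and the log2 difference of 0.20 (SE 0.14) was small beside those of the other 6 genes. As a share of all reads of the 7 genes, Wfdc18 had 92.0%, 96.8% and 92.3% in Trim11+/+ tumors and 78.0%, 74.0% and 68.5% in Trim11+/- tumors. That total includes the chosen genes that were higher in Trim11+/- tumors, so the fall in the share is not a separate change of Wfdc18.

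For all 7 genes the genotypes did not overlap, which was also true of 13.4% of all 17328 genes (6.6% higher and 6.78% lower in Trim11+/- tumors). Since the genes were chosen from this contrast, nothing is read from that count. For the other genes below, a gene is called with a ratio of means of at least 1.5 and an unadjusted limma p under 0.05, a rule met by 3.61% of all genes (1.74% higher and 1.87% lower). An unadjusted p under 0.05 alone was reached by 6.94% of all genes, and 1 gene among the 17328 (0.00577%), 2610507I01Rik, had a Benjamini-Hochberg adjusted p under 0.05 in limma.

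The spread among tumors of 1 genotype is a separate quantity from the difference between genotypes. The SD of log2(FPKM + 1) around the genotype means was 1.39 for Pip, 1.08 for Scgb1b27, 1.08 for Mup5, 0.86 for Scgb2b26, 0.58 for Scgb2b27, 0.44 for Wfdc12 and 0.11 for Wfdc18. Among genes within a factor of 2 of its mean level, a spread as large as that of Pip was seen in 0.644%, of Mup5 in 1.56%, of Scgb1b27 in 1.82%, of Scgb2b26 in 2.62%, of Scgb2b27 in 7.47% and of Wfdc12 in 8.47%. For Wfdc18 it was 93.3% of 30 genes, so Wfdc18 was among the steadier genes at its mean level while the other 6 were among the more variable at theirs. That level is the mean of both genotypes and lies above the Trim11+/+ values of Scgb1b27, Scgb2b26, Scgb2b27, Pip and Mup5. The spread pools both genotypes, so for these genes it includes Trim11+/+ tumors at lower levels than the genes compared.

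Which tumor stood out differed between the genes. In the Trim11+/- group, tumor 3 was the highest for Scgb1b27, Scgb2b26, Pip, Mup5 and Wfdc12, while tumor 2 was the highest for Scgb2b27 and Wfdc18. In the Trim11+/+ group, tumor 1 was the highest for Scgb1b27, Scgb2b26, Mup5, Wfdc12 and Wfdc18, while tumor 3 was the highest for Scgb2b27 and Pip. Deviations from the genotype means over the 6 tumors had a Pearson r of 0.90 between Scgb1b27 and Wfdc12, of 0.86 between Mup5 and Wfdc12 and of 0.80 between Pip and Scgb2b26. They had an r of 0.13 between Scgb1b27 and Scgb2b27, the closest neighbors among the 3 secretoglobins on chromosome 7, and of 0.06 between Scgb2b26 and Scgb2b27. These are descriptions over 6 points that share libraries and 2 fitted means.

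Among 7996 protein-coding genes, the 5 whose deviations were most like those of Scgb1b27 were Clk2, Rnf4, Josd2, Il17b and Bola1, with r between 0.995 and 0.998. For Pip they were Mfsd14a, Cyp20a1, Gyg, Rbm34 and Pla2g7, with r between 0.993 and 0.9996, and for Wfdc12 they were Ptma, Nop56, Commd9, Amt and Pa2g4, with r between 0.997 and 0.999. Each set is the top of 7996 values of r over the same 6 tumors. The SD within genotypes on the log2 scale ran from 0.10 to 0.92 for the genes most like Scgb1b27 (1.08), from 0.10 to 0.35 for those most like Pip (1.39) and from 0.14 to 0.30 for those most like Wfdc12 (0.44). The value of 0.92 was that of Il17b, with 22.9, 6.57 and 3.58 FPKM in Trim11+/+ and 3.24, 3.27 and 6.22 FPKM in Trim11+/- tumors.

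Few other secretoglobin or Mup genes reached the mean of 0.5 FPKM required for a test. Of 66 other secretoglobin genes and pseudogenes, 61 were listed at 0 in all 6 tumors and only Scgb1c1, a secretoglobin of another branch, was high enough to be tested. Scgb1c1 was at 9.45, 1.51 and 2.85 FPKM in Trim11+/+ and 5.34, 7.75 and 18.6 FPKM in Trim11+/- tumors, so the genotypes overlapped, and limma gave a log2 difference of 1.14 (SE 0.61, adjusted p = 0.746). Of 21 other Mup genes, 17 had a read, 3 were tested and 0 met the fold and p rule, by limma's unadjusted p of 0.825 for Mup6, 0.192 for Mup4 and 0.213 for Mup9, and the median log2 difference of the 3 was 0.55. The highest value of any of them was 4.44 FPKM, of Mup4 in Trim11+/- tumor 3. Mup9 was called higher without Trim11+/- tumor 3, and Scgb1c1 without Trim11+/+ tumor 1.

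Wap itself was counted with the milk genes and is not in the list of other WAP-domain genes. Of the 18 genes in that list, 6 were tested, 0 were higher and 1 was lower by the fold and p rule. That gene was Slpi, the secretory leukocyte protease inhibitor, at 16.4, 32.6 and 44.6 FPKM in Trim11+/+ and 9.30, 10.4 and 15.3 FPKM in Trim11+/- tumors. It did not overlap between genotypes, which was also true of 13.4% of all genes. Its log2 difference was -1.27 (SE 0.36, adjusted p = 0.634 in limma), so it did not pass after adjustment. Wfdc17, the neighbor of Wfdc18, was at 29.0 ± 2.73 FPKM in Trim11+/+ and 23.0 ± 4.04 FPKM in Trim11+/- tumors (SD, n = 3 each), with a log2 difference of -0.33 (SE 0.15), and Wfdc3 was at 10.6 ± 3.31 and 11.8 ± 5.47 FPKM. The median log2 difference of the 6 was -0.29, beside -0.0048 over all genes tested. Wap, singled out after its values were seen, had a mean of 70.2 FPKM over all tumors, above that of each gene in this list. It was highest in Trim11+/- tumor 3, at 170 FPKM. Its genotypes overlapped, its log2 difference was -0.00019 (SE 0.69) and it was not called.

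Markers of salivary and lacrimal glands were read in the same tumors, since the secretoglobins and Pip are known from those glands. Of 20 listed genes 19 were in the table and 9 were tested. Of these 1 was higher and 0 lower, beside 1.74% and 1.87% of all genes. Their median log2 difference was 0.69, beside -0.0048 over all genes tested. The gene called was Car6, a secreted carbonic anhydrase of saliva, at 66.8, 29.3 and 40.1 FPKM in Trim11+/+ and 94.6, 155 and 343 FPKM in Trim11+/- tumors. Its means were 45.4 ± 19.3 and 197 ± 130 FPKM (SD, n = 3 each) and its log2 difference was 1.97 (SE 0.50, adjusted p = 0.607 in limma). Aqp5, a water channel of secretory glands, was at 187 ± 47.3 and 307 ± 108 FPKM (SD, n = 3 each), with overlapping genotypes and an adjusted p of 0.713.

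Other salivary genes varied between tumors or were low. Dcpp1, Dcpp2 and Dcpp3, which encode demilune cell and parotid proteins and were singled out after their values were seen, were at 43.7, 42.5 and 20.8 FPKM in Trim11+/- tumor 3, and Dcpp3 had 0 reads in the other 5 tumors. Dcpp1 reached at most 11.7 FPKM and Dcpp2 at most 7.0 FPKM in those 5. None of the 3 met the rule. The lysozyme gene Lyz1, also singled out afterwards, was at 4.42, 10.8 and 1.81 FPKM in Trim11+/+ and 8.05, 1.80 and 2.43 FPKM in Trim11+/- tumors and was not called. Several further genes of the list, also singled out afterwards, were low in every tumor. Prol1 and Smr2 were highest in Trim11+/- tumor 3, at 3.68 and 2.27 FPKM. The amylase gene Amy1 was highest in Trim11+/+ tumor 2, at 2.71 FPKM, and Bpifa2 in Trim11+/+ tumor 3, at 0.248 FPKM. Muc19 and Klk1b22 were listed at 0 in all 6. The summed level of the list ran from 214 to 288 FPKM in Trim11+/+ and from 389 to 686 FPKM in Trim11+/- tumors, mostly from Aqp5 and Car6. Whether salivary or lacrimal tissue had a part in the levels of the 7 genes was not tested.

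**Figure D3:**
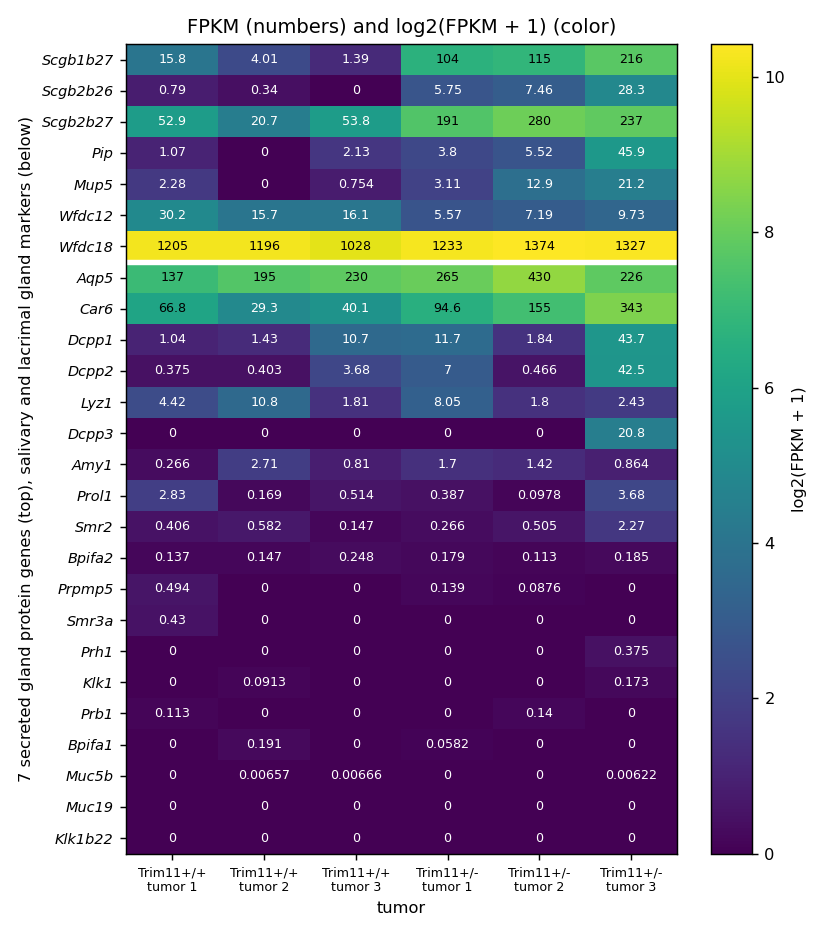
FPKM (printed) and log2(FPKM + 1) (color) of the 7 genes, above the white line, and of the 19 salivary and lacrimal gland markers in the table, below it, in each tumor. Trim11+/- tumor 3 holds the highest values of Pip, Scgb2b26, Car6 (343 FPKM) and the 3 Dcpp genes, while Amy1 stays at or below 2.71 FPKM in all 6.

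Other secreted proteins and regulators of glands were read by the same rule, which called 3.61% of all genes. Of 12 tested secreted proteins of mucosal epithelium, 2 were higher, the peroxidase gene Lpo (0.733 ± 0.331 and 1.84 ± 0.775 FPKM) and the mucin-folding gene Agr2 (0.299 ± 0.0798 and 0.965 ± 0.149 FPKM; SD, n = 3 each), both at low levels. In the same list 1 was lower, the lactoferrin gene Ltf (314 ± 45.8 and 155 ± 73.9 FPKM), while the lipocalin gene Lcn2 was at 1691 ± 156 and 2216 ± 659 FPKM, the osteopontin gene Spp1 at 2567 ± 1850 and 1108 ± 616 FPKM and Chil1 at 437 ± 346 and 320 ± 191 FPKM (SD, n = 3 each), without a call. Of 12 tested milk genes, 0 were higher and 1 lower, Btn1a1 (44.1 ± 28.8 and 16.0 ± 5.84 FPKM, overlapping genotypes), and its call was lost without Trim11+/+ tumor 1 or 2 or without Trim11+/- tumor 2 or 3. The call of Lpo was lost without Trim11+/+ tumor 1 or 2 or without Trim11+/- tumor 1 or 2. The most abundant milk genes, the casein gene Csn3, Lalba and Mfge8, were not called. The median log2 difference was 0.13 for the mucosal list and -0.0076 for the milk list.

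Of 14 tested hormone receptor and gland transcription factor genes, 2 were higher and 0 lower, beside 1.74% and 1.87% of all genes. Spdef, a transcription factor of secretory epithelium, was at 1.63, 2.56 and 6.18 FPKM in Trim11+/+ and 13.7, 23.6 and 7.63 FPKM in Trim11+/- tumors, with a log2 difference of 1.85 (SE 0.49, adjusted p = 0.629 in limma). Fkbp5, a chaperone gene that androgens and glucocorticoids induce, was at 15.1, 12.2 and 11.1 FPKM in Trim11+/+ and 18.6, 41.3 and 24.8 FPKM in Trim11+/- tumors, with a log2 difference of 1.02 (SE 0.28, adjusted p = 0.634). Neither overlapped between genotypes, which was also true of 13.4% of all genes. The highest tumor for both was Trim11+/- tumor 2, as it was for Scgb2b27 and Wfdc18. Scgb1b27, Scgb2b26, Pip and Mup5 were highest in Trim11+/- tumor 3. Elf5, Gata3 and Stat5b, the most abundant of the list, were not called. The median log2 difference of the list was 0.18.

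Among markers of cell types, 5 of 9 tested basal and myoepithelial genes were called lower (Krt5, Krt14, Krt17, Oxtr and Trp63), beside 1.87% of all genes, and none had an adjusted p under 0.05 in limma. In this list 0 were higher, all 9 had a negative log2 difference (median -0.92), and their summed level was 371, 148 and 205 FPKM in Trim11+/+ and 101, 70.8 and 100 FPKM in Trim11+/- tumors. Krt5, a basal keratin, was at 65.5 ± 37.8 and 14.3 ± 6.24 FPKM (SD, n = 3 each), a log2 difference of -2.05 (SE 0.52, adjusted p = 0.610 in limma), and Krt14 at 67.8 ± 20.4 and 36.2 ± 12.3 FPKM. Acta2, Cnn1, Mylk and Myh11 were not called, with Acta2 at 65.4 ± 63.3 and 22.6 ± 5.11 FPKM. The calls of Krt14 and Krt17 were lost without Trim11+/+ tumor 3 or Trim11+/- tumor 2, and that of Krt17 also without Trim11+/+ tumor 1. Of 9 luminal markers 0 were called, with Epcam at 447 ± 40.9 and 473 ± 24.1 FPKM and Krt18 at 397 ± 44.9 and 515 ± 98.6 FPKM (SD, n = 3 each), and 6 of the 9 had a negative log2 difference. Krt19 was at 149, 184 and 177 FPKM in Trim11+/+ and 204, 102 and 35 FPKM in Trim11+/- tumors, lowest in tumor 3, and was called lower without Trim11+/- tumor 1. Cldn7 had an unadjusted p of 0.0372 in limma at a ratio under 1.5. The part of basal cells in the levels of the 7 genes was not tested.

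Muscle, adipocyte, fibroblast and leukocyte markers varied between libraries, and their summed levels overlapped between genotypes. Skeletal muscle markers summed to 19.8, 97.3 and 201 FPKM in Trim11+/+ and 243, 0.874 and 0.814 FPKM in Trim11+/- tumors, and adipocyte markers to 62.9, 461 and 110 FPKM and to 400, 194 and 29.1 FPKM. Adipocyte markers were at their lowest in Trim11+/- tumor 3, where Pip, Mup5, Scgb2b26 and Scgb1b27 were highest. Muscle markers were about equally low in Trim11+/- tumors 2 and 3. Fibroblast markers summed to between 139 and 296 FPKM in Trim11+/+ and between 114 and 216 FPKM in Trim11+/- tumors, and leukocyte markers to between 8.87 and 12.3 FPKM and between 7.27 and 11.7 FPKM. Skin markers summed to at most 6.79 FPKM, sebaceous gland markers to between 0.841 and 1.20 FPKM in Trim11+/+ and between 0.657 and 0.785 FPKM in Trim11+/- tumors, and liver markers, which matter because Mup genes are high in liver, to at most 3.10 FPKM in any tumor. None of these lists held a gene called with all 6 tumors or with an unadjusted p under 0.05 in limma, while limma voom and eBayes without a trend called Itgam, a leukocyte marker, lower. Without Trim11+/- tumor 1 all 6 muscle markers and Col3a1 were called lower, without Trim11+/+ tumor 1 Col1a1 and Col3a1, and without Trim11+/+ tumor 2 Krt71.

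**Figure D4:**
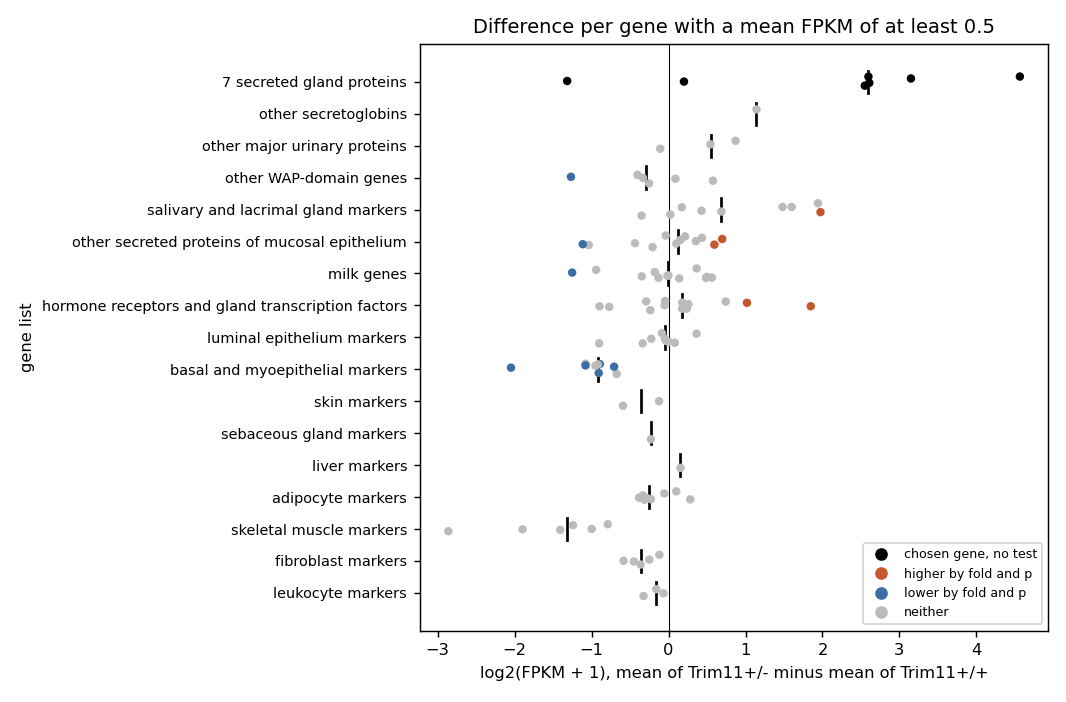
Difference in mean log2(FPKM + 1) between Trim11+/- and Trim11+/+ tumors for each gene with a mean of at least 0.5 FPKM (points), by gene list, with the median of the list (vertical tick). The 7 chosen genes (black) run from -1.32 to 4.56, the tested salivary and lacrimal markers have 1 call (Car6, 1.97), and the 9 basal and myoepithelial markers all lie below 0.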

How the data were processed

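Gene expression was measured in 6 mouse mammary tumors, 3 Trim11+/+ and 3 Trim11+/-. The authors mapped poly(A) RNA reads from non-directional libraries to mm10 with HISAT2 and deposited FPKM values, 1 column per tumor, with Cufflinks named in the methods. How reads that map to several copies were handled is not given in the sources used here. The table of human cell lines was not used, and no other per-sample column was present.

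Of rows with 1 symbol in common the most abundant was kept, leaving 55228 symbols, and the 17328 with a mean FPKM of at least 0.5 were analysed. Read numbers were recovered from FPKM, library totals and GENCODE M21 exon lengths, and 99.38% of 53449 genes gave whole reads in all 6 tumors within 0.05 read. Values of 0 FPKM pass this check by definition. Among genes above 0 the share with whole reads was between 98.8% and 98.89% per tumor. Genotypes were compared on log2(FPKM + 1) with limma 3.58.1 (lmFit, eBayes with a trend) in R 4.3.3, with Benjamini-Hochberg adjustment of p-values. A gene was called with a ratio of means of at least 1.5 and an unadjusted p under 0.05. Exact Poisson and Clopper-Pearson intervals (95%) cover counting error only, and a count of 0 was read as up to 3 reads. Copies were found with BLAST 2.17.0 and exact windows, and other steps used Python 3.11.15, numpy 2.4.6, pandas 2.3.3, scipy 1.17.1 and matplotlib 3.10.9. The fit was tested on simulated data.

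The 7 genes and all gene lists were chosen with earlier results of these data known. Named were the 7 genes, Trim11, the 3 most abundant and all called genes of each family list, the 2 most abundant and all called genes of the salivary, luminal and basal marker lists, and the 5 genes most like Scgb1b27, Pip and Wfdc12. Some other list genes were named after their values were seen. The labels do not say that replicates were separate mice or litters, so p-values measure the spread between these 6 tumors. Alternatives were a pseudocount of 0.1, a mean FPKM of at least 1 or above 0, median ratio scaling, summed rows, no trend, limma voom on recovered reads, a replicate block, summed copies and each tumor left out.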

Additional observations from a re-analysis of the deposited data

How the results depend on the processing

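Of 86 alternative values of the 7 genes' log2 differences, 0 changed direction and 84 moved by less than that gene's own SD within genotypes. The other 2 came from a pseudocount of 0.1, with which Mup5 went from 2.60 to 4.03 and Scgb2b26 from 3.15 to 4.99, both being low in Trim11+/+ tumors. Pip went from 2.61 to 3.97 with it, a shift under its large SD of 1.39. Another mean FPKM cutoff or the replicate block cannot change these differences, and summed rows left them as they were. Those values are therefore no check of the differences. With each tumor left out in turn, the log2 difference ran from 3.92 to 5.32 for Scgb1b27, 2.50 to 3.56 for Scgb2b26, 2.11 to 2.78 for Scgb2b27, 1.59 to 3.23 for Pip, 2.08 to 3.30 for Mup5, -1.50 to -1.02 for Wfdc12 and 0.13 to 0.24 for Wfdc18. Over all genes, 301 were called higher and 324 lower, 479 and 491 with any mean FPKM above 0, where more genes are tested, and 275 to 439 and 296 to 466 with a tumor left out. The 1 gene with an adjusted p under 0.05 was lost (0 genes) with limma voom, and 0 to 1 passed with a tumor left out. In the marker lists 1 gene was called higher, 2 with limma voom (Car6 and Aqp5), and 1 to 3 with a tumor left out, with Dcpp1 and Dcpp2 added without Trim11+/- tumor 2 and Aqp5 added without Trim11+/+ tumor 3 or Trim11+/- tumor 3. Those called lower ran from 3 to 13, with 13 without Trim11+/- tumor 1 and 3 without Trim11+/- tumor 2, and family list calls from 3 to 5 higher and 2 to 4 lower.

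Deviations of same-numbered tumors had correlations of -0.33, 0.04 and -0.13. These gave no sign of a pairing by the numbers in the titles, but cannot show that there was none. With the replicate number as a block, 0 genes had an adjusted p under 0.05, 3 marker genes were called higher (Car6, Dcpp1 and Dcpp2), and Lpo lost its call. Levels of Scgb2b26, Pip and Mup5 in Trim11+/+ tumors rest on at most 5, 51 and 23 reads.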
